A study of Mus musculus with 4 samples.

Results

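The genes described here handle fatty acids and lipoproteins: the fatty-acid carriers Fabp4 and Fabp5, the lipase Lpl, the fatty-acid receptor Cd36, the apolipoproteins Apod and Apoe, the fat-cell hormone Adipoq and the nuclear receptor Pparg. They are 8 of the 32286 features counted, and each symbol matched 1 row in every library. The genes were chosen from levels measured in these same cells, by library and by cell gate, so their levels are a description and support no claim about how the genes were found. Cells were sorted on the red tdTomato reporter from mouse vertebrae T11 to L2, and 1 single-cell library was made for each of 4 conditions. The control genotype was Prss56Cre/+;R26tdTom/tdTom;Nf1+/+ and the mutant genotype was Prss56Cre/Cre;R26tdTom/tdTom; Nf1fl/fl, each at 3 months and at 12-16 months. Cre recombinase driven from Prss56 marks boundary cap cells of the embryonic nervous system and their descendants with tdTomato, and in the mutant it also deletes Nf1, the RAS brake neurofibromin. Controls carried 1 Cre allele and mutants 2, so Cre dose and Nf1 loss cannot be told apart. Cells positive for CD11b, CD31 or CD45 and dead cells were discarded at the sort. How many animals stand behind each library is not given in the sources used here.

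Fatty acids reach cells bound to albumin or packed as triglyceride in lipoproteins. LPL, made by fat cells, muscle and marrow stroma and moved to the capillary wall, cuts the triglyceride. CD36 helps fatty acids across the membrane, and FABP4 and FABP5 carry them inside the cell. FABP4 is abundant in fat cells, in capillary endothelium and in some macrophages, while FABP5 is the epidermal form and is widespread. APOE carries lipids between cells and binds the LDL receptor family, APOD is a lipocalin that binds small lipids such as arachidonic acid, adiponectin is secreted by fat cells and by fat-primed marrow stroma, and PPARG switches on many of these genes. In the annotation of GRCm38 Fabp5 (ENSMUSG00000027533) lies on chromosome 3 from 10012548 to 10016607 on the plus strand. Fabp4 (ENSMUSG00000062515) follows at 10204088 to 10208576 on the minus strand, 187480 bases further along with 4 protein-coding genes between them. Lpl (ENSMUSG00000015568) is on chromosome 8 from 68880491 to 68907448 and Apod (ENSMUSG00000022548) on chromosome 16 from 31296192 to 31314808. The counts cover whole genes, so no exon or UTR is told apart.

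Of 2172 deposited barcodes, 1757 passed the filters (over 750 UMIs, over 500 genes and under 7% mitochondrial UMIs; a UMI is 1 captured RNA molecule). They were 717 control cells and 484 mutant cells at 3 months, and 135 control cells and 421 mutant cells at 12-16 months, with median depths of 8189 to 12644 UMIs and no barcode shared between libraries. Cells were gated on their own counts. Endplate cells held at least 1 UMI of Sox9 and at least 3 of Zfp804b and Dab1 together, and other cartilage cells at least 1 of Sox9 and at least 3 of Acan. Stroma cells held at least 10 UMIs of Cxcl12 and mural cells, the contractile cells around vessels, at least 3 of Rgs5 and Myh11 together. In the order control and mutant at 3 months, then control and mutant at 12-16 months, which is kept below, there were 30, 142, 11 and 38 endplate cells, 529, 235, 78 and 219 other cartilage cells, 17, 12, 9 and 48 stroma cells, and 10, 19, 2 and 24 mural cells. The 6 cartilage markers kept out of the gates (Col2a1, Col9a1, Col11a1, Matn3, Comp and Cnmd) were all found in both cartilage gates of every library. The 6 stroma markers (Lepr, Kitl, Hp, Cxcl14, Esm1 and Adipoq, itself a member) were found in all 4 stroma gates, and 5 or 6 of the 6 mural markers in each mural gate. CPM below are UMIs of a gene, or of a list, per 1000000 UMIs of the gated cells. The other cartilage cells held the cartilage list at 9810.0 to 13773 CPM and a list of fibroblast markers (Dcn, Gsn, Dpt, Pi16 and Clec3b) at 8000.2 to 17166 CPM, with 1 or 2 of these 5 at 0 in each library. Nf1 stood at 131 and 149.7 CPM at 3 months and at 147 and 125 CPM at 12-16 months in control and mutant. These counts come from the 3′ end of the transcript and need not cover the deleted part of the gene, so they check no label.

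With 1 library in each condition no test between conditions is possible and no p-value is given. Each level in CPM carries an exact 95% interval, Poisson for a level, conditional binomial for a ratio and Clopper-Pearson for a share. These intervals cover counting error alone, not the spread between animals or preparations, and molecules from 1 cell are not independent of each other. Where a sum held no UMI, the limit of 3 UMIs is given.

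Fabp4 was highest in the cells of vessels. In mural cells it stood at 5980.5 CPM (95% interval 5538–6448), 5511 CPM (5209–5825), 4047 CPM (3388–4796) and 3959 CPM (3682–4252). It was found in 10 of 10, 19 of 19, 2 of 2 and 20 of 24 of these cells. In cells gated as endothelial afterwards (at least 3 UMIs of Cdh5 and Pecam1 together and none of the 4 gates), of which 3, 7 and 9 were found although CD31-positive cells were discarded, and none in the control at 12-16 months, it stood at 7164.5 CPM, 6309 CPM and 7056 CPM. Both kinds together made up 13, 26, 2 and 33 cells and held 97.9%, 94.6%, 95% and 92.0% of the Fabp4 UMIs of all passing cells. The study itself removed smooth muscle, endothelial and immune cells from its analyses as contamination. Of the tdTomato reporter, mural cells held 0, 4, 1 and 10 UMIs and endothelial cells none. Stroma cells held 0, 0, 0 and 7 and other cartilage cells 71, 18, 7 and 11. The totals differ: mural cells held 113201, 226464, 32864 and 190960 UMIs of all genes and other cartilage cells 7524093, 3061786, 993882 and 2098499. Per UMI the reporter was thus higher in mural than in other cartilage cells in both mutants. Endothelial cells held 22751, 61023 and 52441 UMIs of all genes, too few for their lack of reporter UMIs to be read. Whether the vessel cells belong to the traced lineage was not tested. The mural Fabp4 level did not move with genotype beyond counting error, with mutant over control ratios of 0.921 (0.838–1.01) at 3 months and 0.978 (0.813–1.19) at 12-16 months, the latter against 2 control cells. It was lower at 12-16 than at 3 months in both genotypes, with ratios of 0.677 (0.558–0.816) in control and 0.718 (0.655–0.787) in mutant. The control ratio rests on 2 older cells, 1 of which held 93 of their 133 UMIs. The mutant cells were also split by a Pparg UMI after the values were seen. With one, Fabp4 stood at 5401 CPM in 18 cells at 3 months and 5070 CPM in 16 at 12-16 months. Without one, it stood at 11765 CPM in 1 cell and 1721 CPM in 8.

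**Figure D1:**
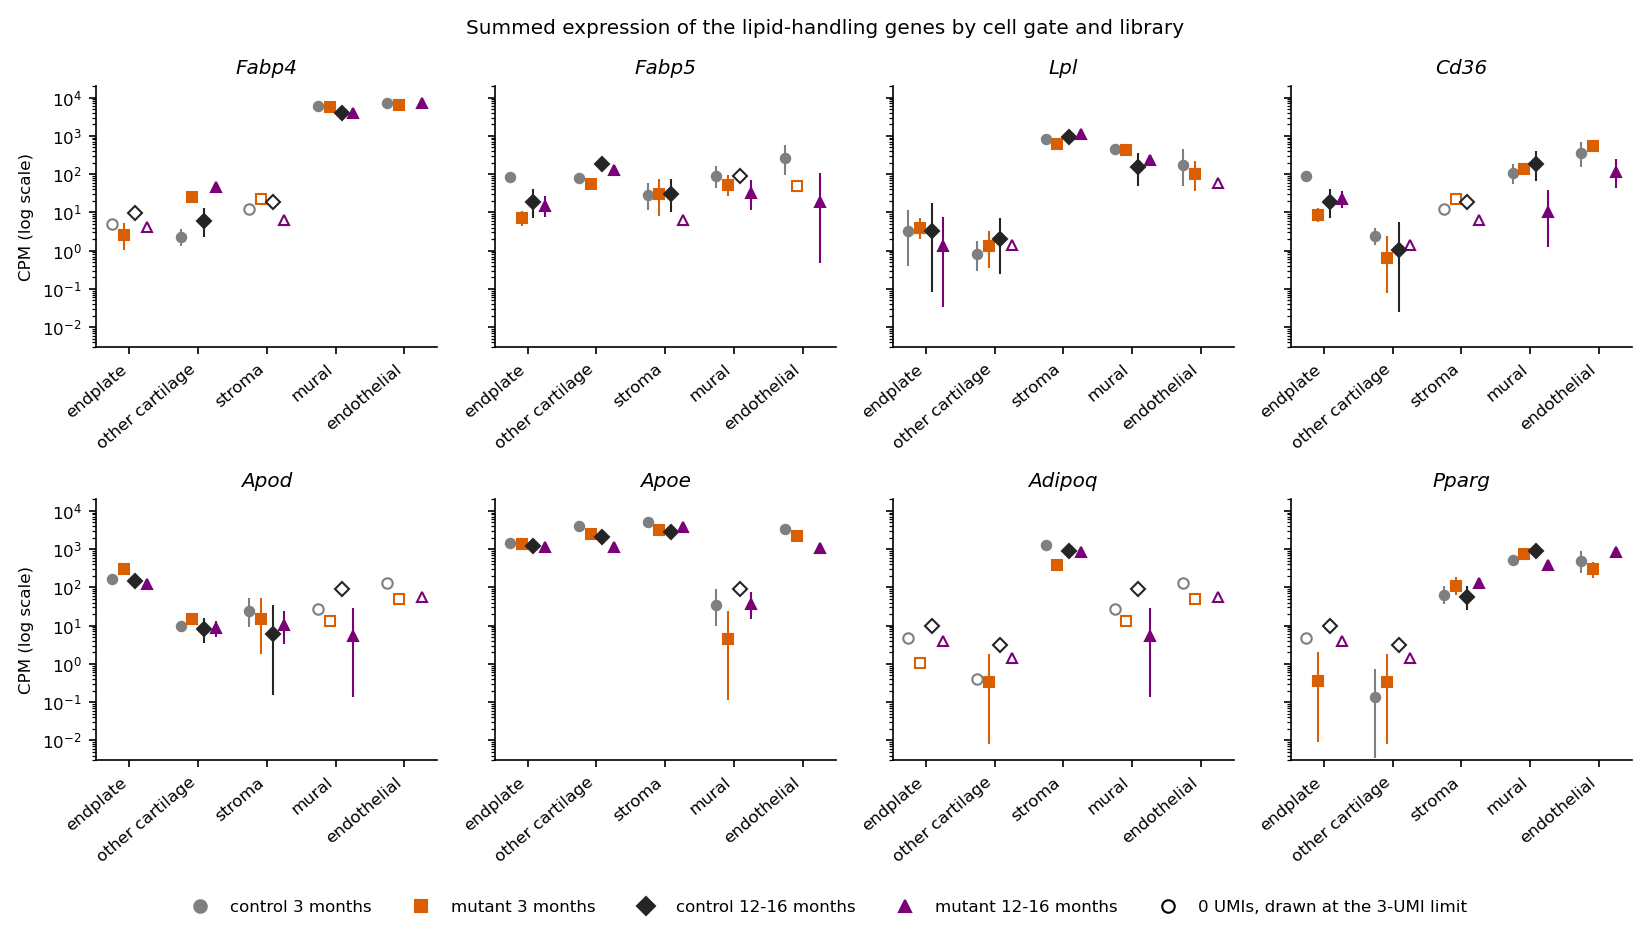
Level of each gene (CPM, log axis) in 5 cell gates, with 1 symbol per library and bars for the exact 95% Poisson interval; open symbols mark sums without a UMI, drawn at the limit of 3 UMIs. Fabp4 is highest in mural and endothelial cells, Lpl and Adipoq in stroma, Apod in endplate cells, and Apoe is high in both cartilage gates, in stroma and in endothelial cells and low in mural cells.

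Fabp4 in other cartilage cells was sparse in the controls and higher in both mutants. The sums were 17, 76, 6 and 97 UMIs, or 2.26 CPM (1.32–3.62), 24.8 CPM (19.6–31.1), 6.04 CPM (2.22–13.1) and 46.2 CPM (37.5–56.4). The 2 mutant levels lie above both control levels and the intervals of mutant and control do not overlap at either age. Mutant over control was 11.0 at 3 months (6.43–19.8) and 7.66 at 12-16 months (3.39–21.4). In the same cells the 6 mural markers, summed, stood at 10.2, 15.0, 15.1 and 31.5 CPM, the 6 endothelial markers at 1.20, 1.63, 1.01 and 0.953 CPM, and the endplate markers Kcnd2, Runx2 and Prkg2 at 161, 856, 192 and 791 CPM, and their part in the result was not tested. These molecules sat in few cells: 12 of 529, 24 of 235, 5 of 78 and 21 of 219, or 2.27% (1.18–3.93), 10.2% (6.65–14.8), 6.41% (2.11–14.3) and 9.59% (6.03–14.3). With each cell thinned to 2000 UMIs the shares were 0.530%, 3.40%, 1.16% and 6.05%. The intervals of the unthinned shares overlap at 12-16 months and not at 3 months. The richest cell held 5, 25, 2 and 28 UMIs. Without the richest cell of each library the level was 1.60 CPM, 16.7 CPM, 4.09 CPM and 33.0 CPM, in the same order.

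Endplate cells held little Fabp4. They had 0, 7, 0 and 0 Fabp4 UMIs, with limits of 4.84 CPM, 9.55 CPM and 4.01 CPM where none was found. In the mutant at 3 months 6 of 142 endplate cells held a UMI, 4.23% (1.57–8.97), at a median depth of 17606 UMIs per cell, and the endplate level was 9.87-fold lower than that of the other cartilage cells of the same library, whose median depth was 11380.0 UMIs per cell. It was at least 11.5-fold lower in the mutant at 12-16 months. In both controls the limits lie above the level of other cartilage cells, so no difference was detectable there.

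Stroma cells held no Fabp4 UMI in any library, 0 of 86 cells, although many of them held Lpl, Adipoq and Pparg UMIs. A limit of 3 cells over the pooled libraries is a share of 3.49%. By library the upper ends of the Clopper-Pearson intervals were 19.5%, 26.5%, 33.6% and 7.40%. These limits are on cells with a UMI and set none on cells that express the gene. None was found in 56 osteogenic cells (at least 3 Runx2 UMIs and no Sox9) or 72 hematopoietic cells (Ptprc, or at least 20 hemoglobin UMIs) either. There the pooled limit of 3 cells is a share of 5.36% and 4.17%. The hematopoietic cells of the controls were shallow, with medians of 1182.5 and 1801 UMIs. In the mutant at 12-16 months the stroma limit of 6.22 CPM is at least 7.43-fold below the level of other cartilage cells. In the mutant at 3 months the limit of 22.1 CPM lies just under the 24.8 CPM of other cartilage cells, and in both controls it lies above their level, so no difference was detectable in these 3 libraries.

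**Figure D2:**
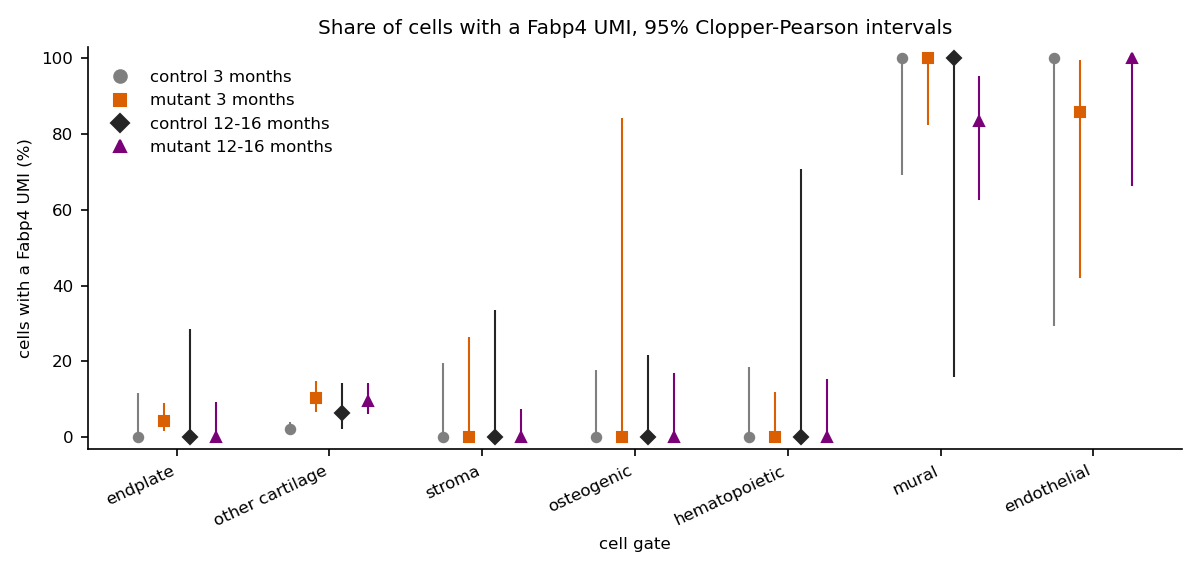
Share of cells with a Fabp4 UMI (percent) by cell gate, 1 symbol per library with its exact 95% Clopper-Pearson interval. Mural and endothelial cells lie at 83.3% to 100%, other cartilage cells at 2.27% to 10.2%, endplate cells at 0 to 4.23%, and stroma, osteogenic and hematopoietic cells at 0.

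Droplet data hold some RNA that is free in the suspension, so genes that would travel with Fabp4 were read in the same cells. Mural and endothelial cells made up 1.81%, 5.37%, 1.48% and 7.84% of passing cells, higher in both mutants than in both controls, as was the Fabp4 level of other cartilage cells, and the part of free RNA in the result was not tested. Within mural cells Fabp4 ran at 0.342, 0.478, 0.236 and 0.295 UMIs per UMI of the contractile genes Acta2 and Tagln. In other cartilage cells the same quotient was 0.630 (0.322–1.20), 5.43 (3.05–10.4), 1.20 (0.305–4.97) and 24.2 (9.17–90.8), above the mural one in each library and with intervals apart from it in all but the control at 3 months. Endothelial cells held 163, 385 and 370 Fabp4 UMIs and no Acta2 or Tagln UMI, so RNA from them would raise this quotient too, and it does not separate sources. Hemoglobin, S100a8, S100a9 and Igkc, genes of blood cells that the sort discards, came to 4.65, 7.51, 30.2 and 12.4 CPM in other cartilage cells, and Fabp4 per UMI of them was 0.486, 3.30, 0.200 and 3.73. In stroma cells the same blood genes came to 60.6, 44.3, 7391 and 16.6 CPM beside no Fabp4 UMI, from sums of 15, 6, 1195 and 8 UMIs. In the mutant at 3 months all 6 were in 1 cell. With the other cartilage cells put in 3 classes of depth, Fabp4 in the mutant at 3 months stood at 28.9 CPM in the shallow, 55.3 CPM in the middle and 6.78 CPM in the deep class. In the mutant at 12-16 months these levels were 77.2, 116 and 4.95 CPM. In the controls, from at most 11 UMIs in a class, they were 1.57, 4.99 and 0.989 CPM at 3 months and 12.9, 0 and 7.04 CPM at 12-16 months. The deep cells thus had the lowest level in both mutants and in the control at 3 months. The shares of cells with a Fabp4 UMI were 5.06%, 16.7% and 8.97% in the mutant at 3 months, lowest in the shallow class. In the mutant at 12-16 months they were 11.0%, 12.3% and 5.48%. The richest cells, with 25 and 28 UMIs, lay in the middle classes, which held 49 and 67 UMIs. Barcodes that failed the filters held 171, 22, 0 and 4 Fabp4 UMIs, most of them in the library with the lowest Fabp4 level in other cartilage cells. In that library, the control at 3 months, the failing barcodes also held 997 UMIs of Acta2 and Tagln. Whether their Fabp4 came from free RNA or from mural cells that failed the filters was not tested.

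The Fabp4 UMIs of other cartilage cells were read beside marker genes of the same cells, with a split at 3 UMIs made after the values were seen. The 19 cells with 3 or more Fabp4 UMIs (1, 8, 0 and 10 by library) held 742 UMIs of Acan, on which they were gated, and each held Col2a1, the main cartilage collagen, with 231 UMIs in all. That is fewer per cell than the 1984 Col2a1 UMIs of the 43 cells with 1 or 2 Fabp4 UMIs and the 45548 of the 999 cells with none. The 19 cells had no UMI of Cdh5, Emcn, Rgs5, Myh11, Acta2, Lpl or Adipoq, 2 Pecam1 UMIs in 1 cell and 1 Pparg UMI in 1 cell. Cells with 3 or more UMIs of Rgs5 and Myh11 together were outside this gate. The 999 cells without Fabp4 were nearly empty of these genes too. Those held 0 Cdh5, 2 Emcn, 5 Rgs5, 4 Myh11, 26 Acta2, 12 Lpl, 1 Adipoq, 36 Pecam1 and 1 Pparg UMIs. The zeros therefore do not separate sources. Fabp5 was found more often beside Fabp4. It was present in 75% of the cells with a Fabp4 UMI in the control at 3 months (9 of 12), 70.8% in the mutant at 3 months (17 of 24), 80.0% in the control at 12-16 months (4 of 5) and 81.0% in the mutant at 12-16 months (17 of 21), and over the 4 libraries in 47 of 62 such cells against 255 of the 999 without Fabp4. Median depths with and without a Fabp4 UMI were 13876 and 12496 UMIs in the control at 3 months, 11618.5 and 11274 in the mutant at 3 months, and 7370.0 and 7670.5 in the mutant at 12-16 months. In the control at 12-16 months they were 14900.0 and 10030.0, so there the 5 cells with Fabp4 were the deeper ones.

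Fabp5, the other carrier, had 79.0% of its UMIs in the other cartilage cells, which held 58.8% of the UMIs of all genes. It stood there at 80.0 CPM (73.7–86.7), 53.9 CPM (46.0–62.8), 184 CPM (158–213) and 130.1 CPM (115–146), and it was found in 30.6%, 23.8%, 30.8% and 27.4% of cells, shares whose intervals overlap. Both libraries of 12-16 months lie above both of 3 months, with ratios of 2.30 (1.94–2.72) in control and 2.41 (1.98–2.95) in mutant. Mutant over control was 0.674 (0.564–0.801) at 3 months and 0.707 (0.584–0.857) at 12-16 months. The second of these rests on 1 cell: a control cell at 12-16 months held 83 of the 183 UMIs, and with the richest cell of each library left out the ratio turned, to 0.18 on the log2 scale, as it did to 0.33 with every cell weighted equally. Without those cells the levels were 75.3, 47.3, 104 and 117 CPM, so the rise with age is smaller in control (0.46 on the log2 scale against 1.20 with every cell). That control cell also held Fabp4, since the control cells without Fabp4 had 59 Fabp5 UMIs together. Stroma stood at 28.3, 29.5 and 30.9 CPM and, in the mutant at 12-16 months, at 0 UMIs, at least 20.9-fold below other cartilage cells. Mural cells at 3 months stood at 88.3 and 53.0 CPM in control and mutant. Their ratios to other cartilage cells, 1.10 (0.527–2.04) and 0.983 (0.498–1.76), take in 1. At 12-16 months mural cells had 0 UMIs in control and 31.4 CPM in mutant, a ratio of 0.242 (0.0879–0.533). Osteogenic cells stood at 69.8 CPM, 0 UMIs, 10.4 CPM and 8.59 CPM.

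In endplate cells Fabp5 was high in the control at 3 months and lower elsewhere. Of the genes that ran with Fabp5, named below, Gadd45b, Nfkbia and Cilp also peaked in this endplate sum. They stood there at 447, 395 and 414 CPM, against endplate medians of 80.2, 60.7 and 80.1 CPM. Their medians in other cartilage cells were 402, 634 and 5962 CPM. Eif1, Ptma, Raph1 and Serpina3n, also among the closest genes, peaked in this endplate sum too. Gabarapl2, Thbs1 and Rpn2, likewise among them, peaked in the endplate cells of other libraries. The part of the gate's make-up in the Fabp5 result was not tested. The Fabp5 levels were 82.2 CPM (61.2–108), 7.19 CPM (4.39–11.1), 19.1 CPM (7.01–41.6) and 14.7 CPM (7.35–26.3), from 51, 20, 6 and 11 UMIs. It was found in 15 of 30 endplate cells of the control at 3 months, where 1 cell held 15 of the 51 UMIs, and in 14 of 142 of the mutant. Without the richest cell of each library the levels were 60.6, 6.14, 7.36 and 9.82 CPM. Mutant over control was 0.0874 (0.0493–0.149) at 3 months and 0.771 (0.261–2.54) at 12-16 months, where the interval takes in 1. Against the other cartilage cells of the same library the endplate level was equal within counting error in the control at 3 months, with a ratio of 1.03 (0.757–1.37), and 7.50-, 9.64- and 8.84-fold lower in the other 3 libraries.

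Cd36, the fatty-acid receptor, stood higher in the endplate cells of the control at 3 months than in those of the other libraries. Its levels were 87.1 CPM (65.4–114), 8.62 CPM (5.53–12.8), 19.1 CPM (7.01–41.6) and 22.7 CPM (13.3–36.4). Against other cartilage cells this was 36.4-fold (21.0–65.9), 13.2-fold (3.28–115) and 19.0-fold (2.30–873) higher, and at least 15.9-fold higher in the mutant at 12-16 months. It was found in 9 of 30, 8 of 142, 1 of 11 and 5 of 38 endplate cells. In the control at 3 months 1 endplate cell held 19 of the 54 UMIs. Mutant over control was 0.0990 (0.0586–0.163) at 3 months and 1.19 (0.448–3.69) at 12-16 months. Fabp5 and Cd36 met in the same cells in the control at 3 months, where 7 of the 9 endplate cells with Cd36 also held Fabp5, against 8 of the 21 without, a split made after the values were seen. Of 8 endplate cells with Cd36 in the mutant at 3 months 1 held Fabp5, against 13 of 134 without. Cd36 was nearly absent from other cartilage cells, with 18, 2, 1 and 0 UMIs, and in stroma none was found. Endothelial cells had 352, 541 and 114 CPM of it and mural cells 106, 137, 183 and 10.5 CPM, 28 of the 31 mural UMIs of the mutant at 3 months in 1 cell.

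**Figure D3:**
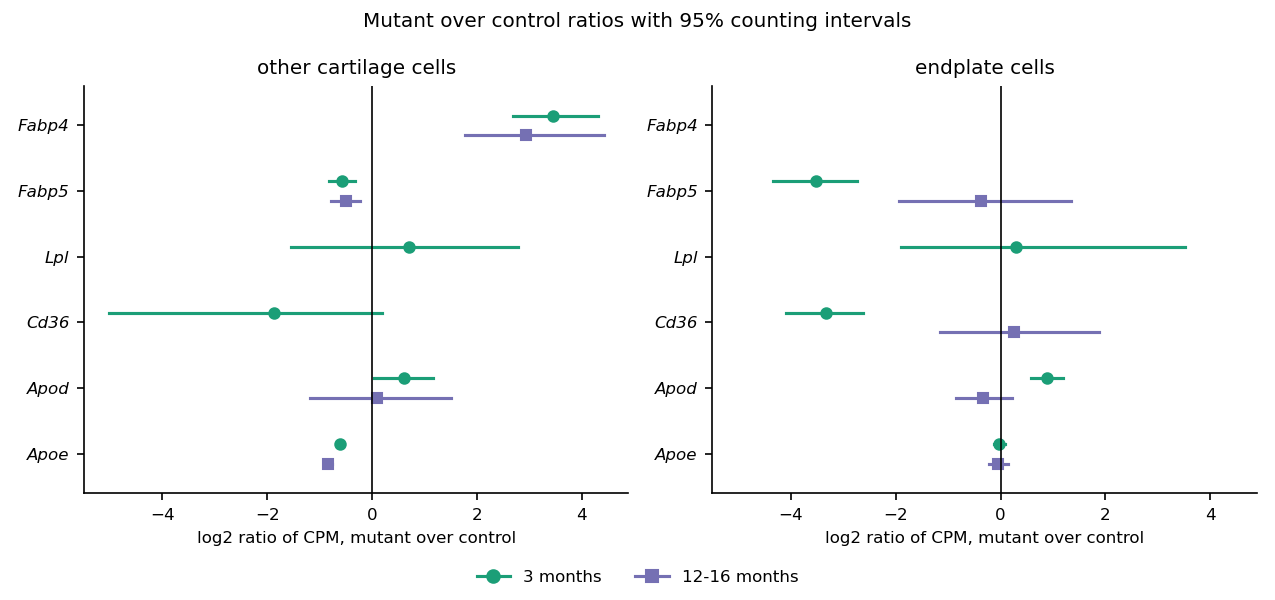
Mutant over control ratio of CPM (log2 axis) at 3 months (circles) and 12-16 months (squares) in other cartilage cells and in endplate cells, with exact 95% counting intervals; ratios with a sum of 0 or no more than 3 UMIs on both sides are not drawn. Fabp4 lies to the right in other cartilage cells at both ages, Fabp5 and Cd36 far to the left in endplate cells at 3 months, and Apoe to the left in other cartilage cells and at the line in endplate cells.

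The members' counts were read against the whole table, with a gene called when it differed by 2-fold or more and had at least 20 UMIs over both sums. In other cartilage cells at 3 months, 9.48% of all genes tested were called in mutant over control, beside 2 of the 5 members tested (Fabp4 higher, and Cd36 lower with an interval of 0.0307 to 1.14 that takes in 1). At 12-16 months 8.65% of genes were called, beside 1 of 4 members, Fabp4. For 12-16 over 3 months 12.0% of genes were called in control, beside 2 of 4 members (Fabp4 and Fabp5 higher; the Fabp4 ratio of 2.67 has an interval of 0.863–7.10), and 7.88% in mutant, beside 2 of 4 members (Fabp5 higher, Apoe lower). In endplate cells 17.2% of genes were called at 3 months, beside 2 of 4 members (Fabp5 and Cd36 lower), and 14.6% at 12-16 months, beside 0 of 3. The median log2 ratio over all genes tested lay between -0.03 and 0.05 in these 6 comparisons. Because the members were picked on these cells, their shares above the background say nothing beyond the levels given.

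Lpl, the lipase, marked stroma and mural cells. In stroma it stood at 841 CPM (731–963), 605 CPM (481–751), 940.2 CPM (797–1102) and 1107 CPM (1015–1205), and it was found in 10 of 17, 10 of 12, 6 of 9 and 34 of 48 cells. In mural cells it stood at 442, 419.5, 152 and 236 CPM, lower than in stroma in every library (ratios of 0.525, 0.694, 0.162 and 0.213, each with an interval below 1). Other cartilage cells held 6, 4, 2 and 0 UMIs, so stroma was 1055-fold higher (476–2907), 463-fold higher (174–1740), 467-fold higher (127–3893) and at least 774-fold higher. In stroma mutant over control was 0.719 (0.550–0.933) at 3 months and 1.18 (0.981–1.42) at 12-16 months, and the older mutant stood 1.83-fold above the younger (1.45–2.34). The richest cell held 67 of the 208, 27 of the 82, 66 of the 152 and 46 of the 534 Lpl UMIs. In mutant stroma cells with an Adipoq UMI, Lpl stood at 536 CPM at 3 months and 1871 CPM at 12-16 months. In those without one the order was reversed, with 659 and 77.8 CPM. In endplate cells 2, 11, 1 and 1 UMIs were found, too few to order the libraries.

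Adipoq, the adiponectin gene, was a gene of part of the stroma. It held 307, 53, 141 and 396 UMIs in stroma cells, or 1241 CPM (1106–1388), 391 CPM (293–511), 872 CPM (734–1029) and 821 CPM (742–906). It was found in 8 of 17, 4 of 12, 3 of 9 and 28 of 48 of them, and all endplate, other cartilage, mural and endothelial cells together held 2 UMIs of it, 1 in an other cartilage cell and 1 in a mural cell. The mutant at 3 months had the lowest level, with a mutant over control ratio of 0.315 (0.231–0.423), where 1 cell held 30 of the mutant's 53 UMIs and another 121 of the control's 307, while at 12-16 months the ratio was 0.941 (0.775–1.15). Of the adipocyte markers besides Adipoq (Plin1, Cidec, Retn, Lep and Cfd) at most 1 was found in any stroma gate, with 1 UMI.

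Splitting the stroma by an Adipoq UMI, a split made after the values were seen, gave sets that differed in the other members too. Over the 4 libraries 43 cells held Adipoq and 43 did not. Those with Adipoq had 1733 CPM of Lpl, 7029 CPM of Apoe and 189 CPM of Pparg, and those without had 188, 884 and 13.5 CPM. Lpl was found in 43 of the 43 cells with Adipoq and in 17 of those without, and Pparg in 30 and in 6. In the mutant at 3 months the Lpl levels did not follow this order, with 536 CPM in 4 cells with Adipoq and 659 CPM in 8 without. Apoe did in each library, with 11491, 5777, 5486 and 6089 CPM in cells with Adipoq and 920, 1134, 735 and 832 CPM in cells without. The 9 stroma cells of the control at 12-16 months also held 1189 UMIs of the neutrophil genes S100a8 and S100a9, against 0, 5 and 3 in the stroma of the other libraries. Bone markers (Sp7, Bglap, Bglap2, Ibsp and Col1a1), summed, stood at 6663, 12282, 8239 and 5020 CPM in stroma, highest in the mutant at 3 months. In other cartilage cells they stood at 332 to 1029 CPM and in osteogenic cells at 117140 to 216789 CPM. The part of the neutrophil and bone genes in the levels was not tested.

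**Figure D4:**
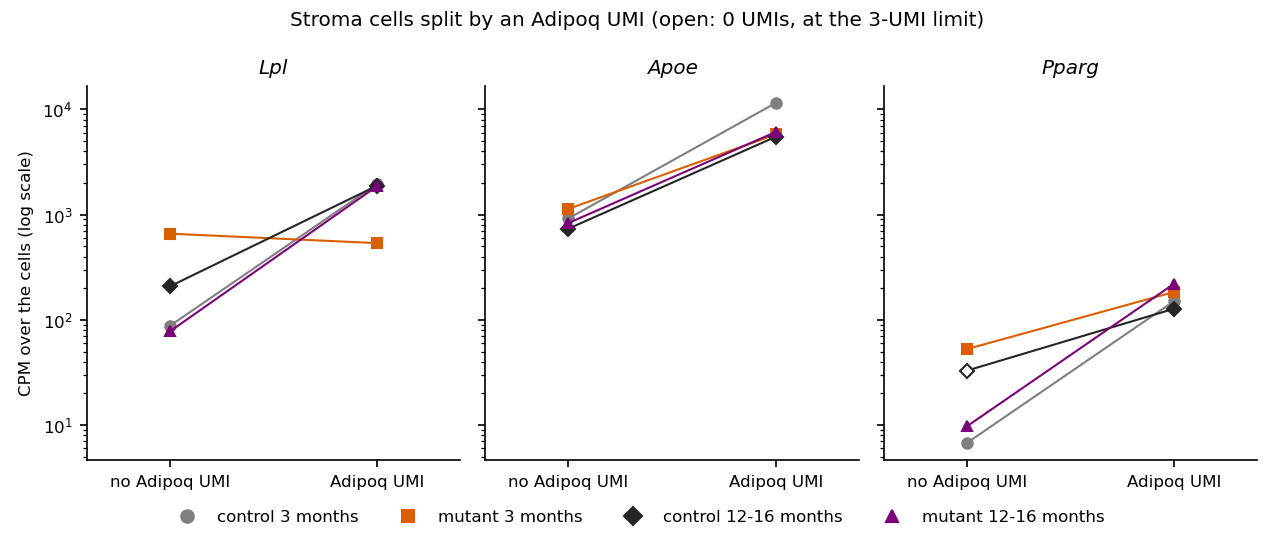
Level (CPM, log axis) of Lpl, Apoe and Pparg in stroma cells with and without an Adipoq UMI, 1 line per library; the open symbol is a sum of 0 drawn at the limit of 3 UMIs. Apoe lies higher with Adipoq in each library, and Lpl does so in 3 of the 4.

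Pparg was highest in vessel cells. It stood at 512 CPM (389–662), 742 CPM (634–863), 882 CPM (591–1267) and 388 CPM (304–486) in mural cells and at 484, 295 and 839 CPM in endothelial cells. Stroma had 64.7, 111, 55.7 and 131 CPM, from 16, 15, 9 and 63 UMIs, so the mural level was 7.92-, 6.70-, 15.9- and 2.97-fold higher. Other cartilage cells held 1, 1, 0 and 0 UMIs and endplate cells 0, 1, 0 and 0, and 1 of these UMIs was in a cell with Fabp4. Mural Pparg was 1.45-fold higher in mutant at 3 months (1.07–1.99) and at 0.439 of control at 12-16 months (0.282–0.700), the latter against 2 control cells.

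Apod was highest in endplate cells. It stood there at 161 CPM (131–196), 296 CPM (276–317), 149.6 CPM (109.9–199) and 119 CPM (95.6–146), and was found in 14 of 30, 61 of 142, 6 of 11 and 16 of 38 cells, shares of 46.7%, 43.0%, 54.5% and 42.1%. Its level in other cartilage cells was at 9.70, 14.7, 8.05 and 8.58 CPM, so the endplate level was 16.6-fold higher (12.2–22.8), 20.1-fold higher (14.9–27.8), 18.6-fold higher (8.70–45.5) and 13.9-fold higher (8.30–24.5). Mural cells held 0, 0, 0 and 1 UMIs and endothelial cells none. Mutant over control in endplate cells was 1.84 at 3 months (1.49–2.28) and 0.796 at 12-16 months (0.553–1.16). Few cells carried these sums: 1 cell held 44 of the 100 UMIs of the control at 3 months and another 133 of the 824 of the mutant, and without the richest cells the levels were 92.0, 249.8, 91.7 and 94.8 CPM in endplate cells and 8.38, 6.24, 4.06 and 6.78 CPM in other cartilage cells, so the size of the endplate ratio rests in part on single cells. In other cartilage cells the ratio of 1.51 at 3 months (1.02–2.23) turned to -0.43 on the log2 scale without the richest cells, 1 of which held 26 of the mutant's 45 UMIs.

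Apoe was the most abundant of these genes in cartilage. In other cartilage cells, where it was lower in both mutants and lower at 12-16 months in both genotypes, it stood at 3898 CPM (3854–3943), 2533 CPM (2477–2590), 2086 CPM (1997–2177.5) and 1164 CPM (1118–1211). Mutant over control was 0.650 (0.634–0.666) at 3 months and 0.558 (0.526–0.592) at 12-16 months, and 12-16 over 3 months was 0.535 (0.511–0.559) in control and 0.459 (0.439–0.481) in mutant. It was found in 506 of 529, 209 of 235, 64 of 78 and 140 of 219 cells, and the median cell held 3022, 1808, 1491 and 303 CPM, so the difference was not carried by few cells. Thinned to 2000 UMIs per cell, the share with Apoe was 87.7%, 77.2%, 67.0% and 50.4%. In the other cartilage cells the endplate markers Kcnd2, Runx2 and Prkg2, summed, stood at 161 and 192 CPM in the controls at 3 and 12-16 months. In the mutants they stood at 856 and 791 CPM. The sum is not particular to endplate cells. It stood at 1454 to 3087 CPM in these, at 2405 to 3204 CPM in stroma and at 1649 to 2394 CPM in osteogenic cells. The fibroblast list stood at 11376, 8000, 16757.5 and 17166 CPM, higher at 12-16 months in both genotypes. The cartilage list stood at 13773, 11883, 9810 and 11846 CPM. The part of these in the result was not tested.

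Endplate cells held Apoe at 1396 CPM (1305–1492.5), 1369.7 CPM (1327–1414), 1187 CPM (1069.5–1314) and 1149 CPM (1074–1229). The mutant over control ratios of 0.981 (0.911–1.06) and 0.968 (0.857–1.10) take in 1. The latter rests on 1 cell, which held 141 of the 373 UMIs of the control, and without the richest cells it was 0.41 on the log2 scale. Apoe was found in 29 of 30, 108 of 142, 10 of 11 and 33 of 38 endplate cells. The median endplate cell held 1418, 762, 523 and 1001 CPM. At 3 months the median was thus lower in the mutant, although the ratio of the sums took in 1. The endplate level was 2.79-, 1.85- and 1.76-fold below that of other cartilage cells in the first 3 libraries and equal to it within counting error in the mutant at 12-16 months, where the ratio was 0.988 (0.913–1.07). Stroma stood at 5171, 3179, 2808 and 3849 CPM, above other cartilage cells in each library by CPM but not by TMM scaling, where the median log2 ratio was -0.07. In the stroma of the 3-month libraries 1 cell held 443 of the 1279 UMIs in control and another 211 of the 431 in mutant, and without the richest cells stroma stood at 3637 and 2259 CPM there, below the 3852 and 2482 CPM of other cartilage cells. Mural cells held 4, 1, 0 and 7 UMIs. Endothelial cells, next to them on vessels, held 3297, 2130.3 and 1068 CPM.

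**Figure D5:**
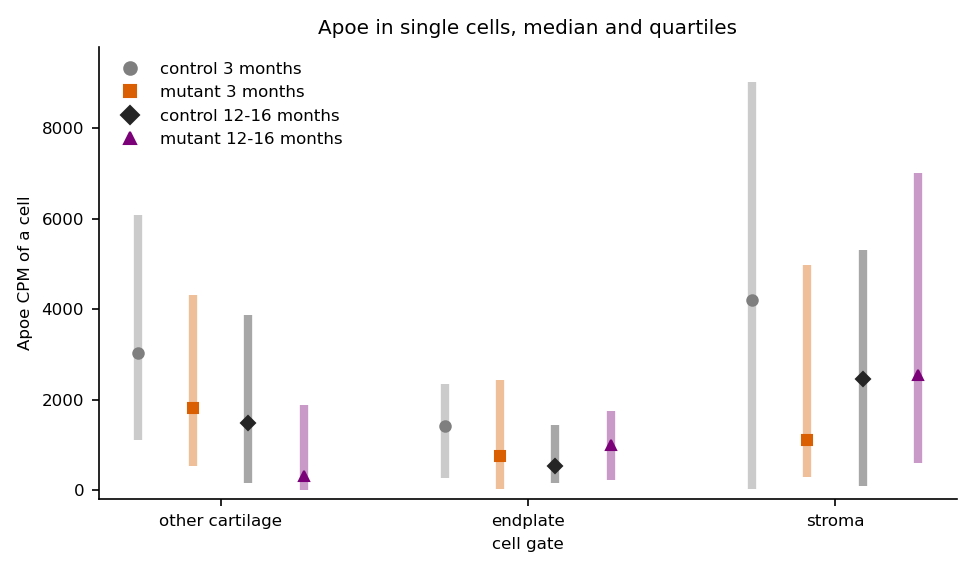
Apoe in single cells (CPM of a cell) by gate and library, with the median as a symbol and the bar from the lower to the upper quartile. In other cartilage cells the medians fall from 3022 through 1808 and 1491 to 303 CPM, and in endplate cells they are 1418, 762, 523 and 1001 CPM. In both gates the quartile ranges of the 4 libraries overlap.

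Between gates a gene was called when it differed 2-fold or more the same way in every library with at least 5 cells on both sides. Between stroma and other cartilage 17.8% of all genes tested were called, beside Lpl and Adipoq, both higher, of the 4 members tested. Between mural and other cartilage, over 3 libraries, 21.4% were called, beside 4 of 5 members: Fabp4, Lpl and Pparg higher and Apoe lower. Between endplate and other cartilage 9.09% were called, beside 1 of 3 members, Apod, higher. The members were picked on levels by gate in these cells, so their shares above the background say nothing beyond the levels given. Other cartilage cells held at most 6 Lpl UMIs, 1 Pparg UMI and 1 Adipoq UMI in any library. These members could reach the UMI count needed for testing only through stroma or mural cells, so their calls followed from that filter.

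Other genes of fat metabolism were read in 8 lists. For other cartilage cells the lists' median log2 ratios of mutant over control lay between -0.44 and 0.20 in the younger mice. In the older mice they lay between -0.60 and 0.19, and cholesterol synthesis had the lowest median at both ages. The counts of list genes called below stand beside 9.48% of all genes called at 3 months and 8.65% at 12-16 months in these cells. Of its 10 genes 10 and 9 were tested, and 1 and 2 were lower by 2-fold or more and 0 higher. Srebf2, the main switch of the pathway, was at 0.999 of control (0.855–1.16) and 0.953 (0.728–1.26). Hmgcs1, an early enzyme, was at 0.643 of control (0.544–0.757) at 3 months and at 0.792 (0.584–1.08) at 12-16 months. Insig1, the sensor that holds the pathway back, was at 0.641 (0.514–0.793) and 0.508 (0.360–0.718). In endplate cells the same list was lower by 2-fold or more at 3 months in 6 of 10 genes, with a median of -1.21, beside 17.2% of all genes called and 6.07% lower. At 12-16 months 2 of 8 were higher and 0 lower, with a median of 0.40, beside 14.6% of all genes called. Over the 8 lists the endplate medians lay between -1.21 and 0.97 at 3 months and between -0.21 and 1.46 at 12-16 months. Lipolysis had 3 of 6 genes higher and 1 lower at 3 months. At 12-16 months the lipoprotein list had 3 of 5 higher and fat synthesis 4 of 10, with 0 lower in both. The control endplate sums came from 30 and 11 cells.

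Among the lipid droplet genes of other cartilage cells at 3 months, 1 was higher and 2 lower of 6 tested. Plin3, a coat protein of droplets, was at 0.892 of control (0.707–1.12) and at 12-16 months at 0.635 (0.423–0.961). G0s2, an inhibitor of the fat-cell lipase, was at 0.271 of control (0.190–0.376) and Plin2, another coat protein, at 0.363 (0.231–0.550). At 12-16 months these 2 stood at 2.05 (0.826–6.10) and 0.750 (0.346–1.69), and 1 of 4 genes tested was higher and 0 lower. Fat synthesis had 1 of 12 genes lower at 3 months and 0 of 12 called at 12-16 months, with the desaturase Scd2 at 0.886 (0.776–1.01) and 1.29 (1.07–1.55). Fat oxidation had 1 of 9 higher and 0 of 7 called, with Hadha at 0.987 (0.809–1.20) and 0.710 (0.504–1.01). Lipolysis had 0 of 6 called and 1 of 5 lower, with Mgll at 1.24 (0.931–1.63) and 1.01 (0.522–2.07). Uptake and binding had 0 of 9 called at 3 months and 1 of 8 lower at 12-16 months, and its most abundant gene Dbi, which binds acyl-CoA, was at 0.541 of control (0.498–0.588) and 1.11 (0.98–1.27). The lipoprotein list had 1 of 7 higher and 0 of 8, with the chaperone-like Clu at 0.718 (0.695–0.741) and 1.01 (0.959–1.06). The adipocyte list had 1 higher and 1 lower of 8, and then 0 of 8 called, with Cebpb at 0.620 (0.587–0.655) and 0.882 (0.814–0.956).

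Between stroma and other cartilage cells the adipocyte list had the highest median, 1.04 on the log2 scale against 0.17 over all genes tested, with 3 of 7 genes higher and 2 lower in all 4 libraries, beside 17.8% of all genes called. Ebf1, a transcription factor of fat cells and marrow stroma, was 61.2-, 45.4-, 16.5- and 46.4-fold higher in stroma, while Cebpb stood at 0.265, 0.446, 0.335 and 0.162 of the cartilage level and Cebpd at 0.186, 0.244, 0.247 and 0.260. Mgll, which cuts monoglycerides, was 6.01-, 3.43-, 14.9- and 8.41-fold higher in stroma, where lipolysis had 1 of 4 genes higher and 0 lower. Fat synthesis had the lowest stroma median, -1.33, with 0 genes higher and 3 of 10 lower. In mural cells fat oxidation had the highest median, 1.51 against 0.14 over all genes, with 4 of 7 genes higher and 0 lower in 3 libraries, among them Hadha at 2.72-, 2.85- and 2.90-fold and Acadl at 4.37-, 4.12- and 5.61-fold in these, beside 21.4% of all genes called. Cholesterol synthesis had the lowest mural median, -1.39, with 0 genes higher and 3 of 8 lower.

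The genes whose levels ran most like each member were sought over the 23 sums of at least 5 cells of a gate in a library, by Pearson correlation of log2(CPM + 10) among 11662 genes. The sums share libraries and gates, so the values are a description. Fabp4 ran with Rgs4 (0.98), Fam124a (0.98), Esam (0.97), Tspan15 (0.96) and A4galt (0.95). Esam, an adhesion protein of endothelium, stood at 241 to 274 CPM in mural and 459 to 496 CPM in endothelial cells, and at no more than 0.653 CPM in other cartilage cells. Rgs4, a brake on G-protein signals, stood at 415 to 530.0 CPM in mural cells. Lpl ran with Il34 (0.95), 1500009L16Rik (0.95), C1s1 (0.93), Kitl (0.91) and Cygb (0.90), and Kitl, the stem cell factor of the marrow, stood at 1058 to 1785 CPM in stroma and 504 to 618 CPM in mural cells. Apod ran with Tmem171 (0.95), 2600014E21Rik (0.94), Sim2 (0.94), St8sia1 (0.94) and 1700023F06Rik (0.94), and the transcription factor Sim2 stood at 111 to 127 CPM in endplate and 8.11 to 26.7 CPM in other cartilage cells. Fabp5 had no partner as close, with Gadd45b (0.74), Eif1 (0.73), Gabarapl2 (0.71), Ptma (0.71) and Nfkbia (0.71). Across the 1061 other cartilage cells, where among the 4 genes Fabp5 alone was common enough to be compared, its closest gene was Cilp with a median Spearman value of 0.30 over the 4 libraries (0.13–0.43), which is weak in counts this sparse.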

How the data were processed

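The 4 spine libraries of tdTomato-sorted cells were read as deposited. The authors made the UMI counts with Cell Ranger 8.0.0 on mm10 with a tdTomato sequence added, and the deposited counts were whole numbers. The study's methods also name a correction for free RNA, which is not visible in these counts. The members and gene lists were chosen with earlier results of these data known. Genes named are the 8 members, the most abundant of each list, and the 5 closest partners of Fabp4, Fabp5, Lpl and Apod.

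Cells were filtered, gated and summed per library in Python 3.11.15 (scipy 1.17.1), and cells of more than 1 gate (31) were left out. Total counts ran from 2226130 to 9830308 UMIs per library. Doublets were called with Scrublet in scanpy 1.11.5 at an expected rate of 6% and kept in the main values, and they made up 0.279%, 0.826%, 6.67% and 0.950% of cells. TMM factors came from edgeR 4.0.16. Ratios of 2-fold or more were called among genes with at least 20 UMIs over both sums. Alternatives were TMM scaling, equal weight per cell, other gate thresholds, cell filters and call rules, leaving out doublets or 1 library, and, chosen after seeing the data, leaving out the highest cell. The calculations were tested on simulated data.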

Additional observations from a re-analysis of the deposited data

How the results depend on the processing

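No paired analysis was possible because each condition had 1 library and no test was run. Of 460 alternative values for 67 results, 394 stayed close, and 28 log2 ratios took the other sign, 4 of them ratios that stood apart from 0 in the main values; the cause was not tested. Leaving out the highest cell, chosen after seeing the data, turned the mutant over control log2 ratio in other cartilage cells to 0.18 for Fabp5 at 12-16 months and to -0.43 for Apod at 3 months; equal weight per cell gave 0.33 for the former. TMM scaling turned the Apoe stroma over other cartilage median to -0.0696. With cells in every gate they pass, Lpl at 3 months in other cartilage cells was -2.32, against 0.71 from 4 and 6 UMIs. With thresholds doubled, Apod was 1.94 in other cartilage cells at 3 months, 0.54 and -1.26 in endplate cells at 3 and 12-16 months, and 3.62 for endplate over other cartilage. Without the highest cell Apod in endplate cells at 3 months was 1.44. Apod stroma over other cartilage was 1.25 with equal weight and 0.88 without the highest cell, and endplate over other cartilage 4.56 with equal weight.

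The share of genes past 2-fold, in the order of the 6 comparisons of mutant with control or age in other cartilage cells and then endplate cells, was 34.2%, 35.7%, 40.1%, 32.2%, 43.3% and 43.3% with no filter and 4.86%, 3.61%, 4.86%, 3.69%, 10.1% and 7.38% with at least 100 UMIs. Calls whose interval leaves out 1 gave 6.97% for age in control and 9.59% for endplate cells at 12-16 months. For mural cells no filter gave 32.5% and the interval rule 14.1%, and for endplate over other cartilage at least 100 UMIs gave 13.9%. Thinned to 2000 UMIs, other cartilage cells with Fabp4 were 0.530%, 3.40% and 1.16% in the first 3 libraries, those with Fabp5 10.8%, 8.88%, 12.8% and 14.7%, and endplate cells with Apod 20.1%, 22.9%, 21.3% and 16.2%.

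Leaving out 1 library in turn moved the median log2 ratio over other cartilage cells from -2.57 to -1.50 for Fabp5, 8.87 to 9.60 for Lpl, 0.0054 to 0.27 for Apod and 0.41 to 0.43 for Apoe in stroma, from 7.11 to 9.58 for Fabp4 and 7.85 to 8.72 for Lpl in mural cells, and from 4.05 to 4.22 for Apod, -3.14 to -2.91 for Fabp5 and -0.89 to -0.81 for Apoe in endplate cells. The small number of cells in several gates limits what can be said of Fabp4. This holds for endplate cells of both controls and for stroma of both controls and of the mutant at 3 months.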
